A study of Mus musculus with 18 samples.

Results

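Small nucleolar, small Cajal body, nuclear, Y and vault RNAs were read in single mouse 2-cell embryos by every probe set whose annotated gene symbols all begin with Snord, Snora, Scarna, Rnu and a digit, Rny or Vaultrc. The rule took 83 of 28815 probe sets. It uses symbols alone, although it was chosen with earlier results of these data known. Because 20 of the 83 repeated the values of another probe set exactly (7 groups of identical probe sets), 70 distinct probe sets were counted, and these are called members below. They comprised 33 probe sets of box C/D RNAs (Snord), 22 of box H/ACA RNAs (Snora) and 3 of small Cajal body RNAs (Scarna). A further 9 read nuclear RNAs (Rnu), 2 read Y RNAs and 1 a vault RNA. Snord58b, Snora3 and Snora21 had 2 members each and the U1 copies had 3, so counts of members are not counts of RNAs. Probe sets with 1 symbol named 62 different genes, and the rest carried the symbols of several gene copies, such as those of the U1 and U3 RNAs. No filter on low values was applied, so every member was measured in every embryo.

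The 9 Parg(110)-/+ embryos were compared with 9 WT embryos, each hybridized alone to an Affymetrix Mouse Gene 1.0 ST array after whole-transcriptome amplification of its RNA. The Parg(110)-/+ embryos descended from 3 fathers, PargA, PargB and PargC, that were Parg(110)-/-, with 3 embryos per father. The WT embryos had wild-type fathers. These were taken as WT1, WT2 and WT3, with 3 embryos each, from the first number in the sample titles. The paper does not state this grouping of WT embryos. All mothers were wild-type 129SVE (129S6/SvEvTac) mice, and matings were natural. The Parg(110)-/+ embryos thus carried 1 paternal copy of Parg, the gene of poly(ADP-ribose) glycohydrolase, with a deletion of exons 2 and 3, and genotype was shared by all embryos of a father. An embryo is written as its father and its number (PargB-1, WT3-2).

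Box C/D and box H/ACA RNAs guide the methylation and pseudouridylation of ribosomal RNA, and a few of them are needed for cleavage of the ribosomal precursor. Most are cut out of introns of host transcripts, many of which encode ribosomal proteins or no protein at all. Small Cajal body RNAs guide modification of the spliceosomal RNAs, the Rnu genes encode spliceosomal RNAs together with U3 and U7, Y RNAs bind the Ro60 protein, and vault RNAs are part of the vault particle. In the mouse, ribosomal RNA synthesis resumes at about the 2-cell stage in immature nucleoli, and a large store of RNA from the oocyte is still present.

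Levels are log2 values of the deposited data, in which 1 unit is a 2-fold difference. Array medians were between 6.34 and 6.53, and levels of different probe sets depend on their probes as well as on the RNA. Whether a probe set read the small RNA itself or a longer transcript that contains it was not measured. The oocyte markers Gdf9, Bmp15, Zp1, Zp2, Zp3, Oosp1, Nlrp5, Ooep, Padi6, Dppa3 and Npm2 (11 of 11 measured) had mean levels between 8.86 and 12.1, and the 2-cell genes Zfp352 and Tcstv3 had 10.4 and 10.5. Markers of cumulus, granulosa and oviduct cells (6 measured) and of blood (3 measured) had mean levels between 4.97 and 7.13, against a 95th percentile of 6.46 for the 1035 probe sets of olfactory receptor genes, which was used as a background level. The sperm and spermatid markers Prm1, Prm2, Tnp1 and Tnp2 had mean levels between 5.57 and 7.17. Parg itself had a level of 10.2 ± 0.48 in Parg(110)-/+ embryos and 10.5 ± 0.41 in WT embryos (SD, n = 9 each), and the groups overlapped.

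The members differed from most probe sets in their spread between embryos. Over 18 embryos their SD had a median of 1.23 log2 units (0.17 to 2.69), against 0.20 for all probe sets. An SD above 1 was found for 47 of 70 members (67.1%), against a background of 5.17% of all probe sets. The highest and lowest embryo differed by more than 4 units, a 16-fold difference, for 38 members (54.3%), against a background of 3.92%. The gap was also present within bins of equal mean level. Between 6 and 7 units the 12 members had a median SD of 1.63, against 0.18 for all 7380 probe sets in that bin. Between 8 and 9 units the 9 members had a median SD of 1.72, against 0.53. Between 10 and 11 units the 4 members had 0.73, against 0.39. The SD exceeded the median of its bin for 69 of 70 members and the 90th percentile of its bin for 55 (78.6%). These figures are descriptions without a test, as members share arrays. Each value is that of a whole embryo, so differences between its cells were not measured. Each embryo gave 1 array, without a technical repeat. The SD therefore holds variation of amplification and hybridization as well as of the embryos, and these cannot be told apart here.

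**Figure D1:**
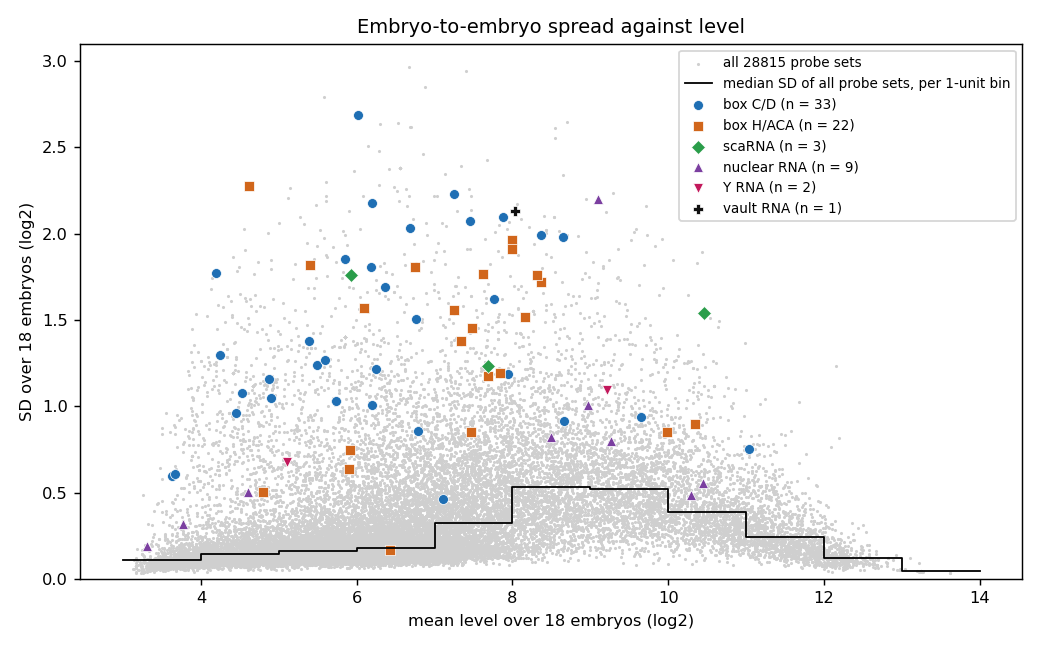
SD over 18 embryos (vertical axis, log2 units) against mean level over 18 embryos (horizontal axis, log2). Grey points are all 28815 probe sets, coloured symbols are the 70 members by RNA class, and the step line is the median SD of all probe sets per bin of 1 unit; 69 of 70 members lie above it.

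For some members, such as Snord61, Snord37 and Snora20, most embryos lay close together at a low level and 1 or a few lay several units higher, whereas others, such as Snord16a and Vaultrc5, were spread over their whole range. When an embryo was counted as high if it exceeded the median of the member over 18 embryos by more than 2 units (4-fold), 53 of 70 members had at least 1 high embryo (75.7%), against a background of 8.49% of all probe sets. Of these, 15 members had 1 high embryo, 9 had 2, 14 had 3, 8 had 4, 5 had 5 and 2 had 6. In all there were 144 high values. The scaled median absolute deviation, which gives little weight to single embryos, had a median of 0.61 in place of the SD of 1.23. It was above 1 for 23 members, and 34 others had a high embryo.

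Most pairs of members were weakly correlated. Over 2415 pairs of members the Pearson correlation across 18 embryos had a median of 0.00, with 5th and 95th percentiles of -0.37 and 0.46, and 10 pairs exceeded 0.8. Among pairs of different genes, Snord37 with Snord49a (0.86), Scarna8 with Snord15b (0.81) and Snord118 with Snord42a (0.80) were the most alike beside Snora73a with Snora73b (0.87). Different probe sets that carried the same symbol did give the same pattern. The pairs of probe sets for Snord58b, Snora3 and Snora21 correlated at 1.00, 0.999 and 0.94. The 3 distinct probe sets for the U1 copies Rnu1b1, Rnu1b2 and Rnu1b6 correlated at 0.99 or above. Whether such probe sets share probes was not given in the sources used here.

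**Figure D2:**
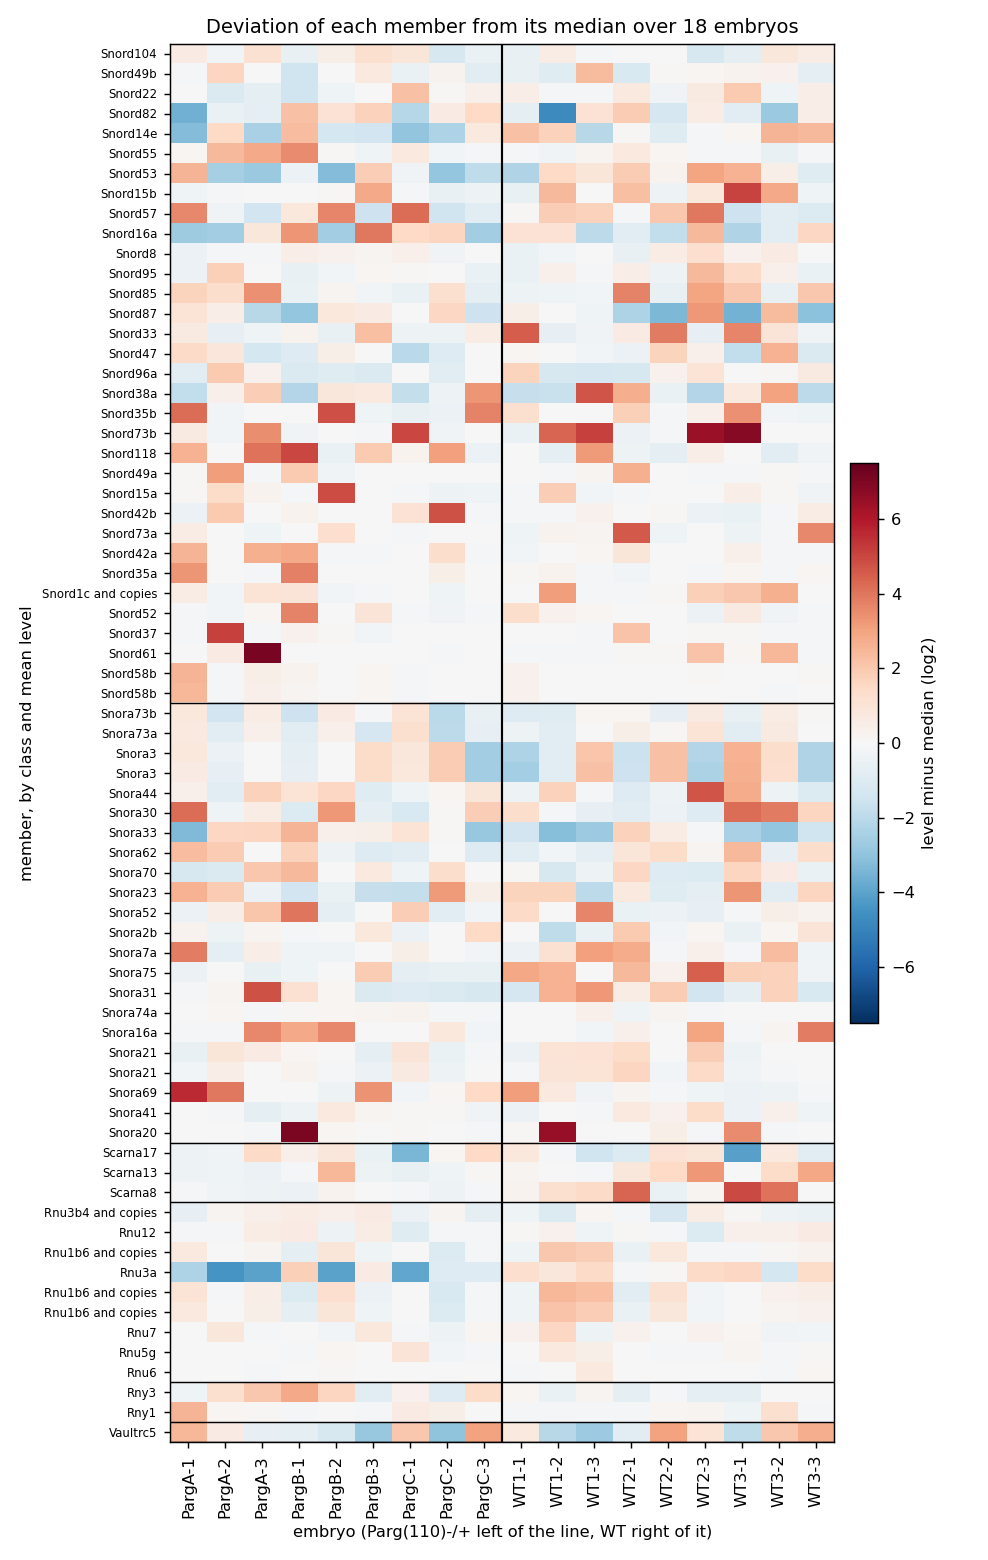
Level of each of the 70 members (rows, grouped by class and ordered by mean level) in each embryo (columns, Parg(110)-/+ left and WT right of the line), as the difference from the median of the member in log2 units; red is higher and blue lower. Single dark red cells are spread over most columns, and there are 144 cells more than 2 units above the median.

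Among box C/D RNAs, which guide 2'-O-methylation, the median SD was 1.27 (0.46 to 2.69), and 25 of 33 had an SD above 1. Their mean levels had a median of 6.19 (3.63 to 11.0), and 14 of 33 (42.4%) lay above the background level. The share was 55.7% for all 70 members and 50.2% for all probe sets. Snord73b, which lies within the ribosomal protein gene Rps3a1, had the largest SD of all members, 2.69. Its level was 4.06, 4.31 and 9.36 in Parg(110)-/+ embryos (lowest, median, highest) and 3.86, 4.37 and 11.2 in WT embryos. The high embryos were PargA-3, PargC-1, WT1-2, WT1-3, WT2-3 and WT3-1, with values between 7.84 and 11.2, whereas the remaining 12 were at 5.01 or below.

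Snord61 had levels between 3.44 and 4.13 in 8 Parg(110)-/+ embryos and 10.6 in PargA-3, and in WT embryos 3.41, 3.60 and 5.99. All embryos but PargA-3 were below the background level of 6.46, so no fold is given. Snord37 was between 3.65 and 4.14 in 8 Parg(110)-/+ embryos and 9.00 in PargA-2, against 3.69 to 3.95 in 8 WT embryos and 6.00 in WT2-1. The same pair of embryos was high for Snord49a, at 8.47 in PargA-2 and 8.01 in WT2-1, and the correlation of Snord37 with Snord49a was 0.86. Snord16a, Snord38a, Snord53 and Snord57 completed the 5 largest SDs of the class (2.08 to 2.23). Snord16a ranged over 4.62, 8.14 and 11.2 in Parg(110)-/+ embryos and over 5.03, 6.45 and 9.74 in WT embryos, so that the groups overlapped over most of their range.

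The 5 box C/D RNAs with the highest mean level were Snord104, Snord49b, Snord22, Snord82 and Snord14e. Snord104 was at 9.78, 11.4 and 12.2 in Parg(110)-/+ embryos and 9.79, 10.9 and 11.8 in WT embryos, with an SD of 0.76. Snord22, known from frog oocytes as a factor in maturation of the small ribosomal subunit RNA, was at 6.99, 8.49 and 10.7 in Parg(110)-/+ embryos and 8.18, 9.00 and 10.5 in WT embryos. No embryo was high for Snord104, and PargC-1 alone was high for Snord22. A bright member could also be low in single embryos. Snord82 was at 5.38, 9.60 and 11.2 in Parg(110)-/+ embryos and at 4.19, 8.30 and 10.9 in WT embryos, with the low values in PargA-1 and WT1-2. The imprinted clusters Snord115, Snord116, Snord64 and Snord107 held no members. The 24 probe sets (7 distinct) that pair Snord116 copies with Gm26504 fell outside the rule, and their SDs were between 2.19 and 2.38 at mean levels between 6.41 and 6.67.

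Among box H/ACA RNAs, which guide pseudouridylation, the median SD was 1.49 (0.17 to 2.28), and 15 of 22 had an SD above 1. Mean levels had a median of 7.47 (4.61 to 10.3), and 15 of 22 (68.2%) lay above the background level, against 50.2% of all probe sets. Snora20, within the chaperonin gene Tcp1, had the largest SD of the class. It was between 3.51 and 3.77 in 8 Parg(110)-/+ embryos and 10.7 in PargB-1. In WT embryos it was 10.2 in WT1-2, 7.19 in WT3-1 and between 3.51 and 4.10 in the other 7. Snora31 was high in PargA-3 (11.1), WT1-2 (8.97) and WT1-3 (9.59), and Snora69 in PargA-1 (10.1), PargA-2 (8.41), PargB-3 (7.86) and WT1-1 (7.64). Snora30 and Snora33 had SDs of 1.91 and 1.96 and varied over more than 4 units in both genotypes.

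Snora73a and Snora73b (U17), which act in cleavage of the ribosomal precursor, were the brightest of the class. Snora73b was at 8.53, 10.5 and 11.6 in Parg(110)-/+ embryos and 9.62, 10.7 and 11.2 in WT embryos, and Snora73a at 8.13, 9.53 and 11.3 against 9.31, 10.2 and 11.1. Neither had a high embryo. Snora3 and Snora44 followed in mean level. By 1 of its probe sets Snora3 was at 5.75, 8.4 and 10.2 in Parg(110)-/+ embryos and 6.06, 7.51 and 11.0 in WT embryos, and Snora44 was at 12.3 in WT2-3 and 10.4 in WT3-1, against at most 9.38 in the other 16 embryos. Snora74a was the member with the smallest SD, 0.17, and the only one below the median SD of its bin, with levels between 6.07 and 6.79 in all embryos.

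Of the small Cajal body RNAs, Scarna17 was bright, at 7.24, 10.9 and 12.2 in Parg(110)-/+ embryos and 6.59, 10.5 and 11.8 in WT embryos. Its low embryos were PargC-1 and WT3-1. Scarna8 was at 4.71, 4.96 and 5.37 in Parg(110)-/+ embryos and 4.65, 6.31 and 10.1 in WT embryos, with WT2-1, WT3-1 and WT3-2 high. Scarna13 was at 6.56, 6.80 and 9.65 in Parg(110)-/+ embryos and 7.02, 8.01 and 10.4 in WT embryos. The class had a median SD of 1.54, and all 3 SDs were above 1.

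The nuclear RNAs had a median SD of 0.56 (0.19 to 2.20), and 2 of 9 were above 1. By the scaled median absolute deviation they had 0.50, close to the 0.56 of box C/D and the 0.55 of small Cajal body RNAs. Rnu12, the U12 RNA of the minor spliceosome, was at 9.36, 10.1 and 10.9 in Parg(110)-/+ embryos and 9.22, 10.4 and 10.9 in WT embryos (SD 0.49). The U3 copies Rnu3b1, Rnu3b2, Rnu3b3 and Rnu3b4, read by 1 distinct probe set, were at 9.90, 10.8 and 11.2 in Parg(110)-/+ embryos and 9.29, 10.3 and 11.1 in WT embryos. Rnu6, Rnu5g and Rnu7 (U6, U5 and the U7 RNA of histone mRNA processing) had mean levels of 3.31, 3.77 and 4.60, below the background level, with SDs of 0.19, 0.31 and 0.50. The 3 distinct probe sets for U1 copies had mean levels of 8.49, 8.97 and 9.27 and were highest in WT1-2 (10.4, 11.1 and 11.1). In contrast, Rnu3a, a separate copy of the U3 RNA that takes part in the first cleavages of the ribosomal precursor, had an SD of 2.20.

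Rny3 was at 7.99, 10.2 and 11.8 in Parg(110)-/+ embryos and within 8.24 to 9.13 in WT embryos, and Rny1 was at 4.70, 4.95 and 7.42 in Parg(110)-/+ embryos and 4.56, 4.77 and 6.05 in WT embryos. The vault RNA Vaultrc5 varied over the whole range without a common low level, at 4.89, 7.33 and 11.0 in Parg(110)-/+ embryos and 5.23, 8.68 and 10.9 in WT embryos (SD 2.13). For comparison, 314 distinct probe sets of microRNA genes, which are also short, had a median SD of 0.18, and 6.69% of them had an SD above 1. Their median mean level was 5.14, and 25.2% of them lay above the background level, against 50.2% of all probe sets, so most were dim. Their SD divided by the median SD of all probe sets in the same level bin had a median of 1.02, against 4.74 for members. The 25 distinct probe sets that pair a member symbol with another gene had a median SD of 1.42, and 80% had an SD above 1. Whether spread goes with length was not tested.

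Spread was then taken within genotypes and within fathers. The median SD of members was 1.29 within Parg(110)-/+ embryos and 1.10 within WT embryos, and 36 of 70 members had the larger SD in Parg(110)-/+ embryos. Pooled within genotypes the median SD was 1.23, and pooled within fathers it was 1.27, so that embryos of 1 father were about as far apart as those of different fathers. Tests for differences between the 3 fathers of a genotype (limma F test) called 0 members among Parg(110)-/+ fathers and 0 among WT fathers at an adjusted p under 0.1, the threshold used throughout. All probe sets gave 3 calls (0.0104%) among Parg(110)-/+ fathers and 1 call (0.00347%) among WT fathers. At an unadjusted p under 0.05 there were 2 members (Snord52 and Snord22) among Parg(110)-/+ fathers, against 5.34% of all probe sets. Among WT fathers there were 3 (Snora41, Snora33 and Snora30), against 4.39%.

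High values were counted in 3 to 15 members per Parg(110)-/+ embryo and in 4 to 15 per WT embryo, with medians of 4 and 9. The totals were 63 of 630 in Parg(110)-/+ embryos (10%) and 81 of 630 in WT embryos (12.9%). Over all probe sets the shares of high values were 0.763% and 0.888%. PargA-1 (15), WT3-1 (15), PargB-1 (14) and WT2-3 (12) together held 56 of the 144 high values. The median deviation of members from their own medians was between -0.10 and 0.18 and was highest in WT2-3. Among all probe sets, high values were most frequent in WT2-1, with 1.22% of probe sets, where 9 members were high.

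Some host genes held more than 1 member, which allowed a comparison within 1 host. Of the 62 genes, 54 lay within another annotated gene, found by position without regard to strand, and 8 did not (Rnu6, Rnu3a, Rnu12, Rnu7, Snord118, Rny1, Rny3 and Vaultrc5). There were 10 host genes that held a pair of members each. The correlation within pairs had a median of 0.02, and 9 of 10 pairs had a correlation between -0.4 and 0.4. The exception over 18 embryos was Snora73a with Snora73b in Snhg3, at 0.87. Within the 9 Parg(110)-/+ embryos Snord95 with Snord96a (Rack1) and Snora16a with Snora44 (Snhg12) reached 0.81 and 0.80, against 0.03 and 0.18 within WT embryos. Among the 8 pairs in which both members had high embryos, 1 pair shared a high embryo. This was Snora16a with Snora44 in Snhg12, both high in WT2-3.

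Within Rps3, Snord15a was 10.1 in PargB-2 and at most 7.05 elsewhere. Snord15b was 7.09 in that embryo but 9.83 in PargB-3, against 12.1 in WT3-1, 9.86 in WT3-2, 9.45 in WT1-2 and 9.27 in WT2-1. Within Rps3a1, Snord73a was high in WT2-1 (9.51) and WT3-3 (8.49), where Snord73b was at 3.92 and 4.29. Within Rpl13a, Snord35a was high in PargA-1 (7.81) and PargB-1 (8.25), and Snord33 in PargB-3 (7.88), WT1-1 (10.2), WT2-2 (9.49) and WT3-1 (9.31). No embryo was counted as high for both members of these 3 hosts, although the second highest Snord15a value, 7.05, was in WT1-2, where Snord15b was high.

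**Figure D3:**
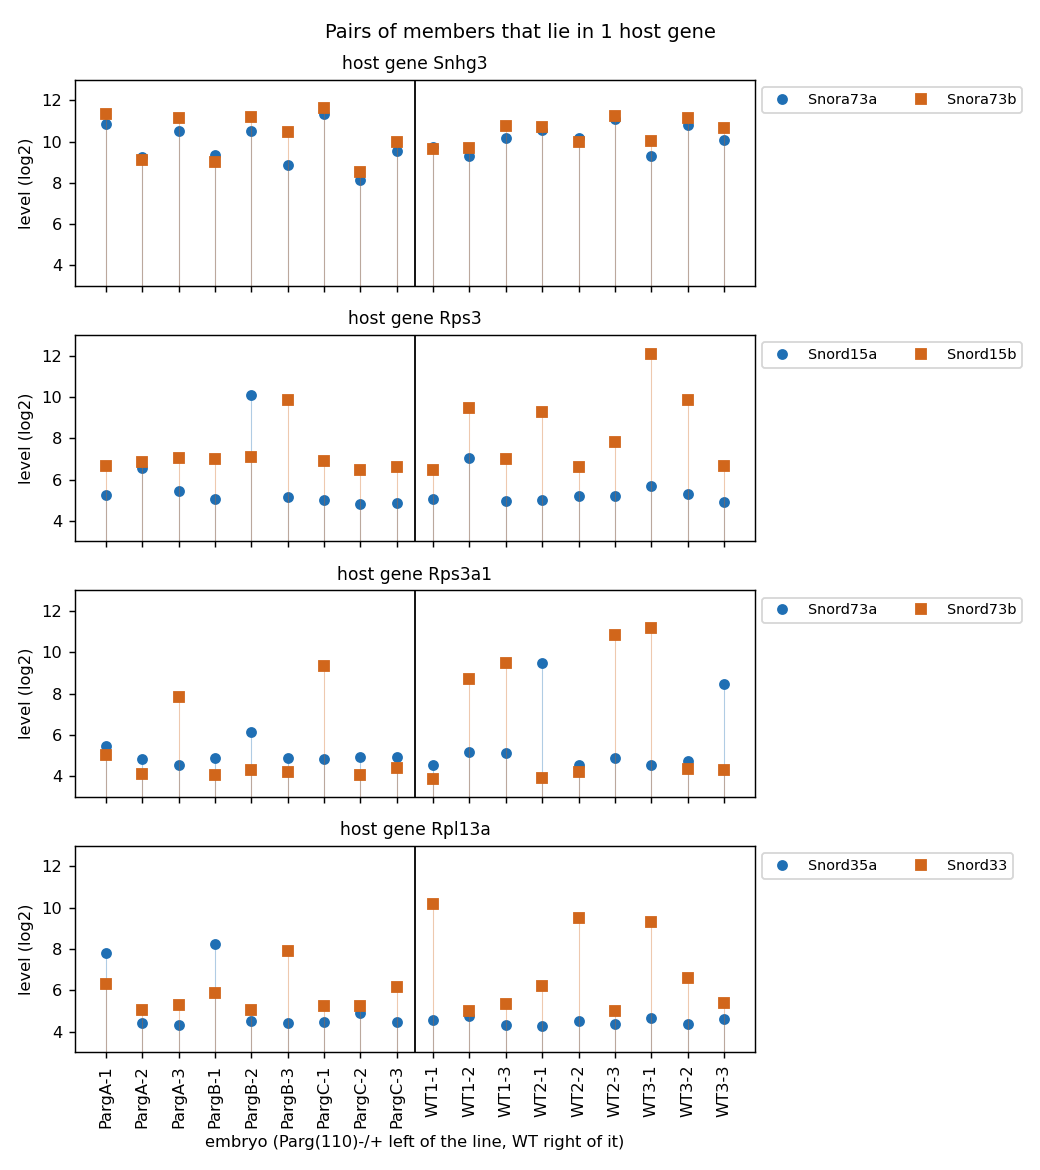
Levels (vertical axes, log2) in 18 embryos (horizontal axis, Parg(110)-/+ left and WT right of the line) of 4 pairs of members that lie in 1 host gene. Circles and squares are the 2 members of a pair; Snora73a and Snora73b move together (r = 0.87), whereas in the other 3 pairs no embryo is more than 2 units above the median for both.

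Many host transcripts of this kind begin with a pyrimidine run, the 5' terminal oligopyrimidine feature shared with ribosomal protein mRNAs. RefSeq start windows (GRCm38.p6) were present for 33 of 47 host genes. A run of at least 8 C or T bases on the sense strand, overlapping the window of 5 bases on either side of the annotated start, was present in 10 of 33 (30.3%), against 11.4% of all 27025 genes in the table. The windows of the 8 hosts with a pair of members that the table holds are shown because their members could be set side by side. Each runs over 20 bases before the start and 10 after it, and capitals mark the longest run of C or T that touches those bases. The run of Rpl13a continues past the window to 14 bases in all, and that of Rack1 is 16 bases long.
Rack1 (Snord95, Snord96a), chr11:48800340-48800369, plus strand: tccggcggaggccgCTCTTTCTTTTTCTCC
Rpl13a (Snord33, Snord35a), chr7:45128736-45128765, minus strand: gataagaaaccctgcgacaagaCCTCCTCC
2410006H16Rik (Snord49a, Snord49b), chr11:62602857-62602886, plus strand: ggcgctcacgcgccgTCTTTCTCTgcggcc
Snhg12 (Snora16a, Snora44), chr4:132308658-132308687, plus strand: gtgcaggccgttctcagTCCTTTCTCgctt
Snhg3 (Snora73a, Snora73b), chr4:132353677-132353706, minus strand: aggcatagtcgaccacgcctgaCTTCCggg
Rps3 (Snord15a, Snord15b), chr7:99483700-99483729, minus strand: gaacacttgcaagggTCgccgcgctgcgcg
Rps3a1 (Snord73a, Snord73b), chr3:86142659-86142688, minus strand: gattcttaaagccggaagggCgaaagagca
Ncl (Snora75, Snord82), chr1:86359446-86359475, minus strand: cggttggctccggggaCggacgcgagctct
The first 4 hosts held a run of 8 bases or more and the last 4 did not, and pairs with a correlation between -0.4 and 0.4 were found in both sets. A match or its absence is a description of the annotated window only, and where these transcripts start in the embryos was not measured.

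Members were also set against their hosts. A host probe set with 1 gene was available for 30 members and 26 hosts. The hosts varied less than the members they contain, with a median SD of 0.22 (0.08 to 0.64), and the SD of the host was the smaller in 29 of 30 pairs. The correlation across 18 embryos had a median of 0.04, was positive in 16 of 30 pairs and passed the threshold in 0 of 30 (permutation test, two-sided, Benjamini-Hochberg over 30 pairs, smallest adjusted p = 0.163). At an unadjusted p under 0.05 there were 3 pairs. On deviations from the means per father 2 of 30 pairs passed, Snora2b with Kansl2 (r = 0.65, permutation test, adjusted p = 0.0475) and Snora52 with Rplp2 (r = -0.77, adjusted p = 0.0057). That permutation moved deviations freely across fathers, although those within a father are not independent of each other. Its adjusted p may therefore be too small.

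The highest correlation was that of Snora2b with Kansl2 (r = 0.51, permutation p = 0.0305, adjusted p = 0.305, rho = 0.49 with permutation p = 0.0415), which was 0.19 without the 2 embryos farthest from the host median. It was followed by Snora62 with Rpsa (r = 0.38, rho = 0.35, r without 2 embryos 0.12), Scarna8 with Haus6 (r = 0.35, rho = 0.40, r without 2 embryos 0.33), Snora75 with Ncl, the nucleolin gene (r = 0.33, rho = 0.35, r without 2 embryos 0.21), and Snord15a with Rps3 (r = 0.26, rho = 0.28, r without 2 embryos 0.36). For these 4 pairs the permutation p of r was between 0.122 and 0.183, that of rho between 0.101 and 0.265 and the adjusted p of r 0.629. The lowest was Snora70 with Rpl10 (r = -0.59, permutation p = 0.00545, adjusted p = 0.163, rho = -0.47 with permutation p = 0.0539, r without 2 embryos -0.50). Snora52 with Rplp2 had r = -0.59 (permutation p = 0.0153, adjusted p = 0.229, rho = -0.26 with permutation p = 0.297), which was -0.20 without 2 embryos. Snora20 with Tcp1 had r = -0.39 (permutation p = 0.112, adjusted p = 0.629) but rho = 0.34 (permutation p = 0.171), and r = 0.08 without 2 embryos, so that its sign rested on those embryos. For 11 of the 30 pairs the host had several probe sets, some of which may lie in processed copies, and the brightest was used.

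The genotype comparison asked whether embryos with a Parg(110)-/- father differed in these RNAs. At an adjusted p under 0.1, 0 of 70 members and 0 of 28815 probe sets (0%) were called (limma, Benjamini-Hochberg). The fit, with the SEs and the interval below, took embryos as independent, although genotype was shared by all embryos of a father. At an unadjusted p under 0.05 there were 8 of 70 members (11.4%), against 10.5% of all probe sets. Of these, 3 were higher in Parg(110)-/+ embryos, where the background was 8.96%, and 5 were lower, where the background was 1.51%. The background shares depended on scaling, whereas the split of members changed little. With equal array medians 2.86% of all probe sets were higher and 3.36% lower, with 2 members higher and 6 lower. After a second quantile normalization the shares were 4.27% and 2.05%, with 3 members higher and 5 lower. The median difference, Parg(110)-/+ minus WT, was -0.08 over members and 0.05 over all probe sets, and 31 members were higher and 39 lower in Parg(110)-/+ embryos. A one-way test without moderation gave 4 members at an unadjusted p under 0.05 and a fit on the means per father gave 13, again with 0 called.

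The smallest p was that of Rnu3a. Its level was 5.34, 7.43 and 11.6 in Parg(110)-/+ embryos and 8.43, 11.0 and 11.3 in WT embryos. In PargA-2, PargA-3, PargB-2 and PargC-1 it lay between 5.34 and 5.85 and in PargA-1 at 7.43, below every WT embryo, whereas PargB-1 had the highest value of all. The difference was -2.75 ± 0.78 (SE; 95% interval -4.39 to -1.10, adjusted p = 0.362, limma), and 8 of 9 Parg(110)-/+ embryos were below the WT mean. Under all 31 alternatives the unadjusted p stayed under 0.05 and the difference lay between -3.50 and -1.96, but the adjusted p was between 0.271 and 0.735 (limma or the one-way test). The alternatives reuse mostly the same embryos, and Rnu3a was picked for its small p, so they add no separate support. The other U3 copies, Rnu3b1 to Rnu3b4, had means of 10.6 and 10.3.

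Snora75, within Ncl, was between 5.69 and 6.46 in 8 Parg(110)-/+ embryos and 8.36 in PargB-3, against 6.17, 8.22 and 10.9 in WT embryos. The groups overlapped, and the difference was -1.91 ± 0.56 (SE, adjusted p = 0.362, limma). Scarna8 differed by -1.95 ± 0.67 (SE, adjusted p = 0.381, limma). All 9 Parg(110)-/+ embryos were below the WT mean of 6.90, but 4 WT embryos lay at 5.40 or below as well. Scarna13 had means of 7.14 and 8.24 (difference -1.11 ± 0.51, SE), and 8 of 9 Parg(110)-/+ embryos were below the WT mean.

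Rny3 had a mean of 9.75 ± 1.33 in Parg(110)-/+ embryos and 8.67 ± 0.38 in WT embryos (SD, n = 9 each), a difference of 1.07 ± 0.44 (SE, adjusted p = 0.437, limma). Of the Parg(110)-/+ embryos, 6 exceeded all WT embryos and 2 lay below all of them. Snord118, the U8 RNA that acts in maturation of the large ribosomal subunit RNAs, had a difference of 1.68 ± 0.76 (SE). It was above 6.8 in PargA-1, PargA-3, PargB-1, PargB-3 and PargC-2, and in WT1-3 among WT embryos. The differences of Snord53 (-1.90), Snord55 (1.04), Snord42a (0.91) and Snord14e (-1.70) had unadjusted p between 0.0401 and 0.0557, and for these the groups overlapped.

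**Figure D4:**
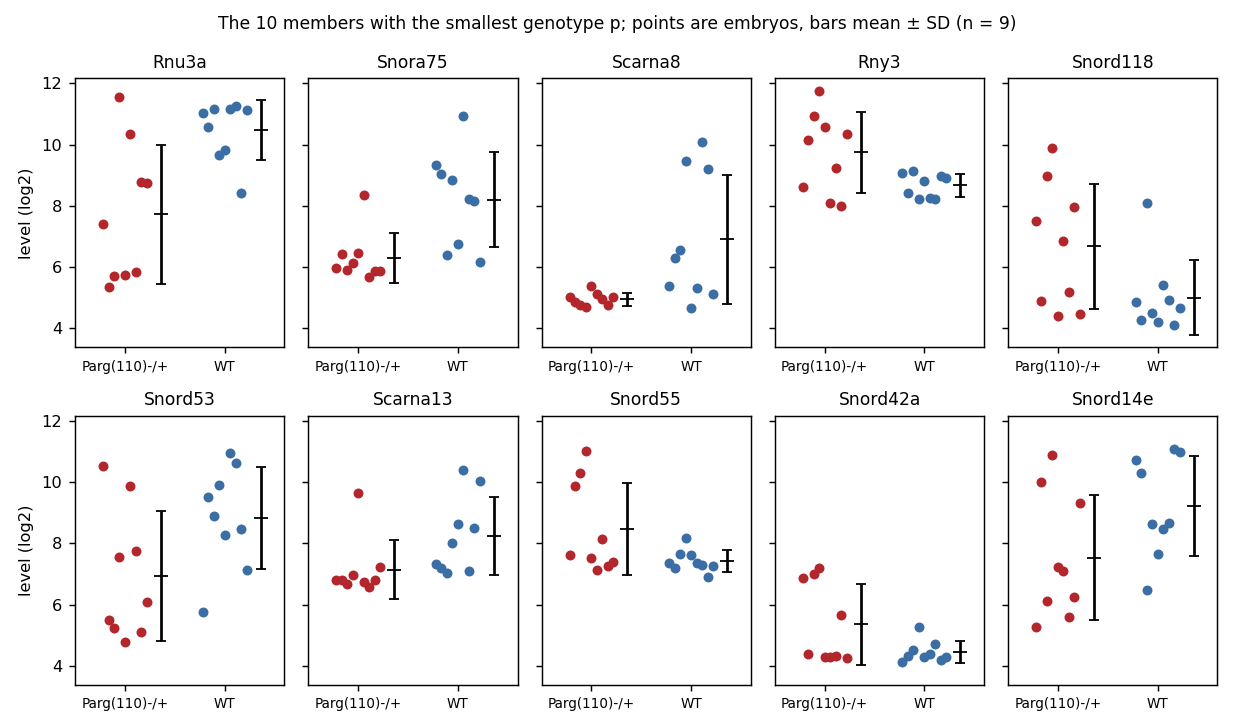
Levels (vertical axes, log2) of the 10 members with the smallest genotype p, Parg(110)-/+ left and WT right in each panel. Points are embryos and bars are mean ± SD (n = 9); in every panel the groups overlap, and 0 of the 10 were called at an adjusted p under 0.1.

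Each Parg(110)-/+ embryo was also compared with the 9 WT embryos, and each WT embryo with the other 8. Members were called 24 times in Parg(110)-/+ embryos (3.81% of 630 tests), against a background of 0.865% of all probe sets. In WT embryos they were called 9 times (1.43%), against a background of 0.731%. Each test has 1 embryo on one side, and its spread comes from the WT embryos alone. With 8 WT embryos on the other side, the Parg(110)-/+ embryos gave 19 to 26 calls. With the spread pooled over both genotypes there were 11 calls in Parg(110)-/+ embryos and 2 in WT embryos. The difference between the genotypes in these counts was not tested. Of the 24 calls, 14 fell in offspring of PargA, 8 in those of PargB and 2 in those of PargC, and by embryo the counts were between 0 and 5. PargB-1 also had the most calls among all probe sets (2.17%).

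**Figure D5:**
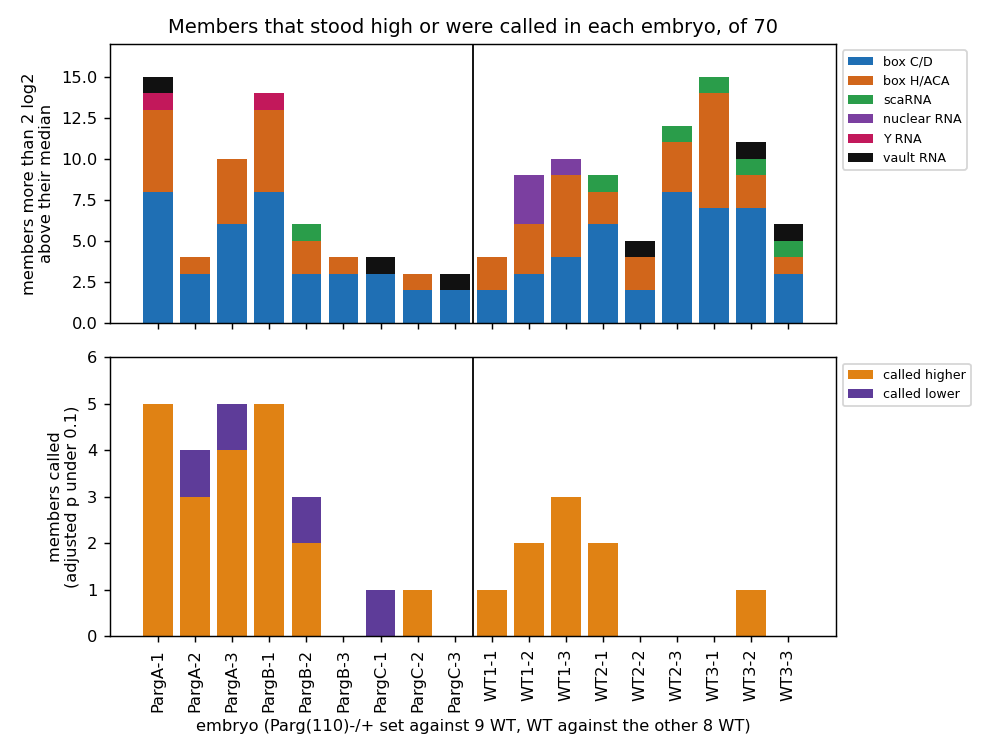
Upper panel, number of members (of 70, stacked by RNA class) more than 2 log2 units above their median in each embryo. Lower panel, number of members called higher or lower at an adjusted p under 0.1, each Parg(110)-/+ embryo (left of the line) against 9 WT embryos and each WT embryo (right) against the other 8; the totals are 24 and 9.

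Of the 24 calls in Parg(110)-/+ embryos 20 were higher, and the 4 lower calls were all Rnu3a, in PargA-2, PargA-3, PargB-2 and PargC-1 (differences of -5.13 to -4.62). Snord55 was called in PargA-2, PargA-3 and PargB-1, with levels of 9.87, 10.3 and 11.0 against 6.91 to 8.18 in WT embryos. Snord42a was called in PargA-1, PargA-3 and PargB-1 (6.88, 7.00 and 7.18 against at most 5.26 in WT embryos), and Rny3 in PargA-3, PargB-1 and PargB-2 (10.9, 11.8 and 10.6). Snord42b, which shares the host Rpl23a with Snord42a, was called in PargA-2 (7.06) and PargC-2 (9.84), that is in other embryos. Snord35a was called in PargA-1 and PargB-1. Rny1, Snord15a, Snord37, Snord52, Snord58b and Snord61 were each called in 1 Parg(110)-/+ embryo, Snord58b with both of its probe sets. The Snord58b values in PargA-1 (5.94 and 6.02) were below the background level of 6.46, so they do not show a level above background.

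In WT embryos the 9 calls were all higher and fell on 9 different RNAs. They were Snora69 in WT1-1, Snord15a and Rnu7 in WT1-2, Snord118, Rnu6 and Snora52 in WT1-3, Snord49a and Snord37 in WT2-1, and Rny1 in WT3-2. In these embryos Rnu6 (4.01), Rnu7 (6.02), Snord37 (6.00) and Rny1 (6.05) were still below the background level of 6.46. Their calls therefore do not show levels above background. Apart from Rnu3a (WT SD 0.98), the members called in 2 or 3 Parg(110)-/+ embryos had a narrow spread in WT embryos, as with Snord35a (WT SD 0.18), Snord42a (0.35), Snord55 (0.36) and Rny3 (0.38). Snord73b, with a WT SD of 3.21, was not called in any embryo.

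Proteins that bind, process or transcribe these RNAs, host RNAs without a protein product and other small RNAs were taken as a list of 82 genes, of which 72 were measured. None was called by genotype (0 of 72, limma), and at an unadjusted p under 0.05 there were 2 higher and 2 lower, against the 8.96% and 1.51% of all probe sets given above. Ints2, an Integrator subunit that acts in processing of spliceosomal RNA 3' ends, had means of 8.09 ± 0.35 in Parg(110)-/+ embryos and 8.65 ± 0.62 in WT embryos (SD, n = 9 each). Gemin4 of the SMN complex, which assembles spliceosomal particles, had 6.66 ± 0.46 and 7.38 ± 0.96, and for both genes all 9 Parg(110)-/+ embryos were below the WT mean. Terc, the telomerase RNA, which itself has an H/ACA domain, had 7.07 ± 0.37 in Parg(110)-/+ embryos and 6.70 ± 0.25 in WT embryos. Snhg11 had 7.01 ± 0.14 and 6.81 ± 0.11. The listed genes had a median SD of 0.45 over 18 embryos, and 5 of 72 had an SD above 1. The box C/D core proteins Fbl (fibrillarin), Nop56, Nop58 and Snu13 had a median level of 11.5 and a median SD of 0.31, and the H/ACA core proteins Dkc1 (dyskerin), Nop10, Nhp2 and Gar1 had 10.9 and 0.36.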

How the data were processed

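The authors amplified RNA of single embryos (NuGen WT-Ovation One-Direct), hybridized it to Mouse Gene 1.0 ST arrays and deposited log2 values made by RMA in Partek (background correction, quantile normalization, summarization; versions not given in the sources used here). All 18 deposited columns were used as they stand. The number of arrays limits the precision; embryos of a father are not independent.

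Differences were tested with limma 3.58.1 (R 4.3.3) on all 28815 probe sets, and the model was checked on simulated data. Calls required an adjusted p under 0.1 (Benjamini-Hochberg). Correlations with host genes used 100000 permutations. Hosts were RefSeq (GRCm38.p6) genes that contain a member. The design asked for the same strand, which the table used does not give, so position alone was used. Symbols came from the GEO platform annotation, and 46 probe sets that pair a member symbol with another gene were outside the rule.

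Probe sets with identical values were counted once. Members and lists were chosen with earlier results of these data known. Genes were named by a rule: all Scarna, Rnu, Y and vault RNAs, the 5 brightest and 5 most variable Snord and Snora, the 10 smallest genotype p, every single-embryo call (up to 10 by smallest p), the 5 highest and 3 lowest host correlations, and listed genes with an unadjusted p under 0.05. Others named were chosen after their values were seen. Alternatives covered scaling, spread, test, father and embryos.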

Additional observations from a re-analysis of the deposited data

Results flagged for a closer look

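In groups of 9 embryos a value was singled out where its gap to the nearest other embryo as a share of the range of the group exceeded the 95% critical value of Dixon's ratio for 9 values. Chance marks about 1 in 20 groups. Among the 70 members this held for 19 in Parg(110)-/+ embryos (27.1%) and 15 in WT embryos (21.4%), against 13.9% and 13.2% of all probe sets, and 18 of the 19 and 14 of the 15 concerned the highest embryo.

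For the members named in the text, the ratios in Parg(110)-/+ embryos were as follows. PargA-1 stood apart for Rny1 (0.713) and for both Snord58b probe sets (0.802 and 0.789), PargA-2 for Snord37 (0.909), and PargA-3 for Snord61 (0.904) and Snora31 (0.607). PargB-1 stood apart for Snora20 (0.964) and Snord52 (0.699), PargB-2 for Scarna13 (0.789) and Snord15a (0.666), and PargB-3 for Snora75 (0.712). PargC-1 stood apart as the highest embryo for Rnu5g (0.692) and as the lowest for Scarna17 (0.593), and PargC-2 for Snord42b (0.536).

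In WT embryos WT1-1 stood apart for Snora69 (0.677) and both Snord58b probe sets (0.706 and 0.684), and WT1-2 for Rnu7 (0.641) and Snord15a (0.637). WT1-3 stood apart for Snord118 (0.675), Rnu6 (0.668), Snord49b (0.587) and Snora52 (0.522). WT2-1 stood apart for Snord37 (0.887), Snord49a (0.874) and Snord42a (0.50), WT3-1 as the highest embryo for Snord22 (0.529) and as the lowest for Scarna17 (0.504), and WT3-2 for Rny1 (0.672).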

How the results depend on the processing

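Members called by genotype and by father stayed at 0 under every alternative run. The 8 members at an unadjusted genotype p under 0.05 became 13 with means per father, 4 with the one-way test of the methods, 4 without father PargA and 4 without father WT3, and 3 to 9 when each embryo was left out. It was 3 without PargA-3 and 5 without PargB-1, PargC-2, WT1-2, WT2-3, WT3-1 or WT3-2. The 24 single-embryo calls in Parg(110)-/+ embryos and 9 in WT embryos became 11 and 2 with the pooled spread, and 19 to 26 for Parg(110)-/+ embryos when each WT embryo was left out (chosen after seeing the data).

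The scaled median absolute deviation gave median spreads of 0.56 for box C/D, 0.88 for box H/ACA, 0.55 for small Cajal body, 0.50 for nuclear, 0.62 for Y and 3.01 for vault RNAs, and 0.61 for all members, in place of SDs of 1.27, 1.49, 1.54, 0.56, 0.89, 2.13 and 1.23. With each embryo left out the median SD was 1.22 to 1.27 for all members, 1.23 to 1.3 for box C/D, 1.36 to 1.52 for box H/ACA, 1.26 to 1.59 for small Cajal body, 0.51 to 0.57 for nuclear, 0.74 to 0.91 for Y and 2.04 to 2.19 for vault RNAs. The median levels were then 6.93 to 6.99, 6.17 to 6.31, 7.4 to 7.53, 7.53 to 7.76, 8.84 to 9.05, 7.09 to 7.20 and 7.86 to 8.22 in the same order. Nuclear RNAs with 1 symbol had a median level of 4.60, in place of 8.97, and a median SD of 0.49. With identical probe sets counted (chosen after seeing the data) the median level was 7.46 for all members and 9.07 for small Cajal body RNAs, and the median SD of nuclear RNAs was 0.81.

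With 3 units in place of 2 (chosen after seeing the data) 33 members had a high embryo, with 37 high values in Parg(110)-/+ embryos and 34 in WT embryos, and with 1 unit there were 119 and 145. Host correlations that passed were 2 in place of 0 on deviations from the means per father, Snora2b with Kansl2 (r = 0.65) and Snora52 with Rplp2 (r = -0.77). The permutation there did not keep deviations within fathers, so its adjusted p may be too small. The correlation of Snora20 with Tcp1 turned to 0.084 without the 2 embryos farthest from the host median. The cause of these changes was not tested. No paired analysis was possible because embryos of the genotypes share no numbers. Array values this low, near those of olfactory receptor genes, cannot order dim members.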
